A study of Arabidopsis thaliana with 8 samples.

Results

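The genes described here encode xyloglucan endotransglucosylase/hydrolases (XTH) of *Arabidopsis thaliana*. They are *XTH4* (AT2G06850), *XTH9* (AT4G03210), *XTH15* (AT4G14130), *XTH16* (AT3G23730), *XTH17* (AT1G65310), *XTH18* (AT4G30280), *XTH19* (AT4G30290), *XTH22* (AT5G57560), *XTH24* (AT4G30270) and *XTH33* (AT1G10550). The 10 genes were chosen by identifier from a table of 33602 genes, with earlier results of these data known. They belong to a family of 33 *XTH* genes that are all in that table. All 10 are listed for each of the 8 libraries.

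Xyloglucan is the main polysaccharide that lies between and on cellulose microfibrils in the primary walls of most flowering plants. XTH enzymes cut a xyloglucan chain and join the cut end to another chain (the endotransglucosylase reaction) or to water (the hydrolase reaction), and they act in walls that are growing or being remodelled. Plants shaded by neighbours receive light with a low ratio of red to far-red, which phytochromes sense, and petioles and stems then elongate. *XTH15* (also *XTR7*), *XTH16*, *XTH17* and *XTH19* are known from studies of shade-induced petiole and hypocotyl growth, and *XTH22* (also *TCH4*) is known as a touch-induced gene.

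The plants were wild-type Col without a transgene, soil-grown in long days and about 2 weeks of age. The treatment was far-red light added to the simulated sun at equal photosynthetic light, here called shade, and the controls received simulated sun throughout. Shade began at ZT 4 (Zeitgeber time, hours after lights on), and tissue was taken after 1 hour and after 4 hours. This gave the groups sun 1 h, shade 1 h, sun 4 h and shade 4 h, each with 2 replicates of 5 pooled plants. Leaves and shoot apex were pooled, so a level is a mean over many cell types, and fewer cells of a type and less RNA per cell cannot be told apart.

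Levels are in CPM, read counts that the authors scaled to a common library size. Libraries held 3449191 to 4680620 reads on genes, apart from replicate 1 of shade 4 h with 1154019. One read was worth 0.856 CPM in that library and 0.216 to 0.291 CPM in the others. At 10 CPM its counting error, as a coefficient of variation (SD over mean), is 29.3%, against 14.7% to 17.1% in the others. The 5 leaf markers summed to between 28700 and 36430 CPM, and 5 shoot apex markers to between 89.8 and 110 CPM, of which *CLV1*, *KNAT1* and *STM* had reads in every library, *CLV3* no more than 1 read and *WUS* 0. The 8 root markers summed to 11.2 CPM in replicate 2 of sun 1 h, where *WER* alone was at 9.49 CPM, and to between 1.73 and 3.99 CPM in the other libraries, with *PLT1*, *PLT2* and *RHD6* at 0 throughout. Of 5 shade markers, 3 were called higher in shade at 1 hour and 1 at 4 hours.

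Some members lie together in the genome. *XTH24*, *XTH18* and *XTH19* are neighbouring genes on the minus strand of chromosome 4, between bases 14819192 and 14830224 of the TAIR10.1 build. *XTH17* is on chromosome 1 (24257054 to 24258506), but its coding sequence was 92.2% identical to that of *XTH18* and 88.6% identical to that of *XTH19*, and those of *XTH18* and *XTH19* were 89.2% identical. *XTH22* is on chromosome 5 (23307006 to 23308680) beside *XTH25*, *XTH13* and *XTH12*, which held no more than 3 reads in any library. The other members are single genes on chromosomes 1 (*XTH33*), 2 (*XTH4*), 3 (*XTH16*) and 4 (*XTH9* and *XTH15*).

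A read of 40 bases cannot be assigned where 2 genes share 40 or more bases. Such stretches made up 2.57% of the exonic positions of *XTH17*, 3.51% of *XTH18* and 3.16% of *XTH19*, and 0% of *XTH4*, *XTH9*, *XTH16*, *XTH22*, *XTH24* and *XTH33*. How the authors counted reads with several matches is not given in the sources used here, so a small share of the reads of *XTH17*, *XTH18* and *XTH19* is uncertain. The longest run shared by each pair is printed here, on the strand of the genes, to show where the reads of these copies cannot be told apart. The first is in coding exon 2 of *XTH18* (chr4:14826483-14826550) and of *XTH19* (chr4:14829475-14829542). The second is in coding exon 2 of *XTH17* (chr1:24257709-24257759) and of *XTH19* (chr4:14829510-14829560). The last is in coding exon 1 of *XTH17* (chr1:24257460-24257506) and of *XTH18* (chr4:14826754-14826800).
XTH18 and XTH19, 68 bases: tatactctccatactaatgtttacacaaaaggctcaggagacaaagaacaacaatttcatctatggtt
XTH17 and XTH19, 51 bases: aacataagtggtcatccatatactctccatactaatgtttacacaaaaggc
XTH17 and XTH18, 47 bases: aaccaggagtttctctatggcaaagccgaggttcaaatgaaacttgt

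The 250 bases before the annotated start of each gene were searched on both strands for the G-box CACGTG and the PBE-box CACATG, which are sequences that phytochrome-interacting factors bind, for the auxin response element TGTCTC and for the brassinosteroid response element CGTGTG. The G-box and the brassinosteroid element can overlap in the letters CGTG. The PBE-box was in 3 of the 10 windows, and the other motifs were in 0 of 10. Over 27443 promoters of the same length, 11.1% held the PBE-box, 6.49% the G-box, 10.95% the auxin element and 5.37% the brassinosteroid element. In *XTH17* and *XTH18* the PBE-box began 63 bases before the start, read on the opposite strand, and in *XTH33* it began 194 bases before the start. The windows of *XTH17* (chr1:24256804-24257053, plus strand) and *XTH18* (chr4:14827212-14827461, minus strand) are printed because these genes are on different chromosomes and yet 87 of the last 100 bases before their starts were identical. Capitals mark the PBE-box, here as its reverse complement CATGTG. The sequences are from RefSeq, build TAIR10.1.
XTH17: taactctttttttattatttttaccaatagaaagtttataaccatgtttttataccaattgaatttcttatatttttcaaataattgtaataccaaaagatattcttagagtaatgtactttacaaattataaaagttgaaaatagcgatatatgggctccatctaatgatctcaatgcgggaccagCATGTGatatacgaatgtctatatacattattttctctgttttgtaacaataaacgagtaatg
XTH18: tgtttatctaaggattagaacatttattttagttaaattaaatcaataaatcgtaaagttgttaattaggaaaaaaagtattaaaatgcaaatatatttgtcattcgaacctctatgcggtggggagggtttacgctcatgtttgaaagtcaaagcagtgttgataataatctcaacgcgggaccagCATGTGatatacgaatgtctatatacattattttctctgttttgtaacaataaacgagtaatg

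The 10 genes differed widely in level. To compare genes, CPM was divided by exon length in kilobases. *XTH9* had the highest mean over the 8 libraries (214 CPM per kb, range 163 to 288), followed by *XTH4* (150 CPM per kb, range 88.5 to 205) and *XTH16* (49.0 CPM per kb, range 41.5 to 59.2). These were places 1, 2 and 4 among the 33 family genes on that scale. The means of the others were 21.1 CPM per kb for *XTH22*, 11.5 for *XTH24*, 8.49 for *XTH15* and 4.58 for *XTH17*. The lowest means were 1.66 CPM per kb for *XTH18*, 1.24 for *XTH19* and 0.822 for *XTH33*. Neighbours in this order had ranges that did not overlap only for *XTH4* above *XTH16* and for *XTH16* above *XTH22*. The order of *XTH18* and *XTH19* held in 5 of 8 libraries, and the other neighbours kept theirs in 6 to 8 of 8.

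**Figure D1:**
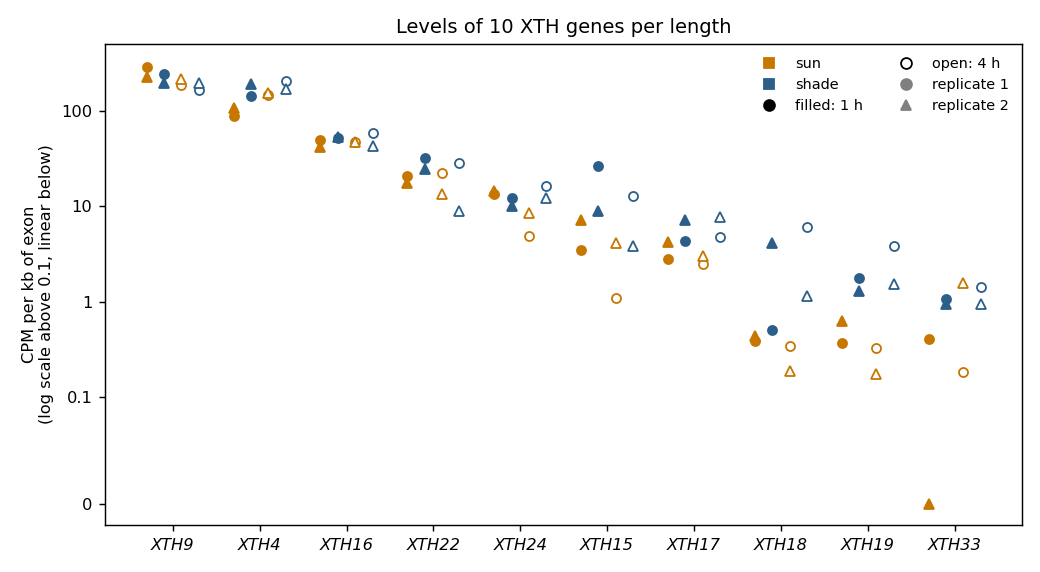
Level of each of the 10 *XTH* genes in CPM per kilobase of exon (log scale above 0.1, linear below). Each point is 1 library, with sun in orange, shade in blue, 1 h filled, 4 h open, circles for replicate 1 and triangles for replicate 2. *XTH9* and *XTH4* were at 88.5 CPM per kb or more in all 8 libraries, while *XTH18*, *XTH19* and *XTH33* were at 6.10 or less.

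*XTH9* and *XTH4* together made up 73.5% to 82.5% of the summed CPM per kb of the 10 genes in each library. Their balance was not tested between groups. In CPM per kb, the ratio of *XTH4* to *XTH9* was 0.307 and 0.479 in sun at 1 h, and 0.588 and 0.965 in shade at 1 h. It was 0.768 and 0.702 in sun at 4 h, and 1.26 and 0.867 in shade at 4 h. The ratio was lowest in the sun libraries of 1 h, and replicate 1 of shade 4 h was the only library with more *XTH4* than *XTH9* on that scale.

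The shade response was tested with limma on log2(CPM + 1), where a gene was called at a Benjamini-Hochberg adjusted p under 0.05 over 19280 tested genes. Fold changes on this scale understate the change of genes near 1 CPM. All 10 genes reached the minimum of 1 CPM in 2 libraries, and 7 of them did so with the sun libraries alone. *XTH18* and *XTH19* reached it through shade libraries alone and *XTH33* with 1 sun library, so *XTH18* and *XTH19* could only be tested because they were higher in shade. Because the 10 genes were chosen with earlier results of these data known, shares of other genes printed beside them are descriptive. They are no test of the set. No label says that replicates were grown separately, so p-values measure the spread between these pools. With 2 libraries against 2, an exact two-sided permutation test cannot go below 0.333, so it was not used.

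**Figure D2:**
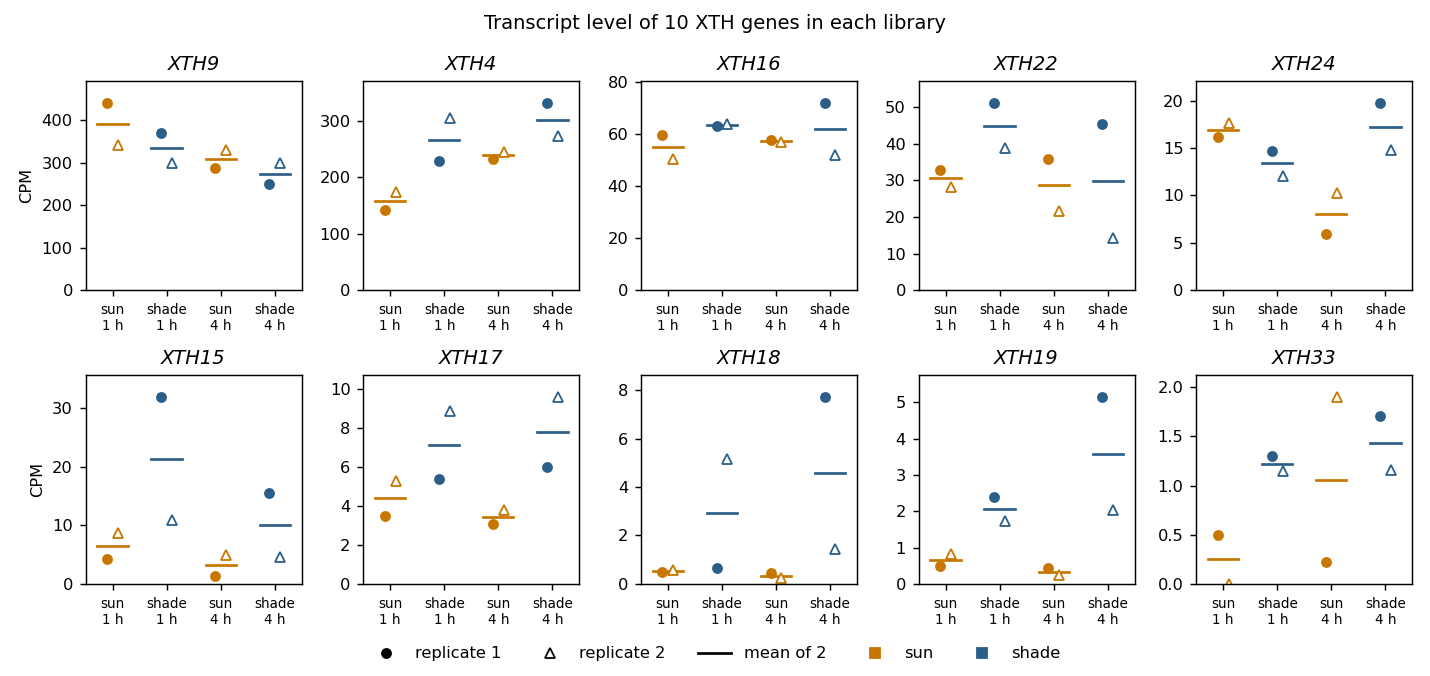
Level in CPM of each of the 10 *XTH* genes in each library, with its own linear axis for each gene. Circles are replicate 1, triangles replicate 2, horizontal lines the mean of 2, and sun is orange and shade blue. At 1 h the shade libraries of 8 genes lay above both sun libraries, beside 19.5% of all tested genes. At 4 h those of 5 genes did, beside 16.9%. Both counts include *XTH18* and *XTH19*, which were tested only because of their shade libraries.

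After 1 hour of shade none of the 10 genes was called, beside 0.472% of the 19280 tested genes (91 genes). An unadjusted limma p under 0.05 was found for 2 of them, *XTH4* and *XTH15*, beside 6.73% of all tested genes. The count at the adjusted threshold was 0 with edgeR and 1 (*XTH4*) with DESeq2, beside 0.716% and 0.612% of all tested genes. With edgeR 2 of the 10 had an unadjusted p under 0.05, beside 8.0%. The 2 shade libraries lay above the 2 sun libraries for 8 genes, beside 19.5% of all tested genes, and below them for 1 gene, *XTH24*, beside 18.5%. Among the 8 is *XTH18*, whose lower shade library held 3 reads against 2 in each sun library. The median log2 difference was 0.66 over the 10 genes and -0.00019 over all tested genes. Over the 7 genes that reached the minimum with sun libraries alone it was 0.53, with 5 of 7 above without overlap, beside 19.1% of the 18518 genes selected in the same way.

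*XTH4*, which encodes an abundant endotransglucosylase known from expanding tissue and wood, came closest to the threshold at 1 h. Its CPM was 143 and 174 in sun and 230 and 305 in shade at 1 h, and 234 and 245 in sun and 331 and 274 in shade at 4 h. The shade libraries were above the sun libraries at both times, and both sun libraries of 4 h were above those of 1 h. At 1 h the means were 158 ± 21.9 CPM in sun and 267 ± 53.2 CPM in shade (SD, n = 2), a log2 difference of 0.74 (SE 0.17), with a limma adjusted p of 0.0863. Leaving out either library of shade 4 h, which enters the shared estimate of the spread, brought that limma adjusted p to 0.0194 (without replicate 1) or 0.0198 (without replicate 2), while 0.949% or 0.965% of all tested genes were then called. DESeq2 on the recovered reads gave an adjusted p of 0.0145 and edgeR 0.0653. At 4 h the difference was 0.33 (SE 0.17, limma adjusted p 0.629).

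*XTH15* showed a higher mean in shade at both times and a wide spread between replicates. Its CPM was 4.23 and 8.65 in sun and 31.8 and 10.9 in shade at 1 h, and 1.32 and 4.99 in sun and 15.4 and 4.65 in shade at 4 h. Replicate 1 was the higher one in both shade groups and the lower one in both sun groups, and at 4 h the groups overlapped. The replicates differed by more than counting error in every group, with a coefficient of variation of 69.1% against 10.5% in shade at 1 h and 75.9% against 26.9% in shade at 4 h. The log2 difference was 1.48 (SE 0.59, limma adjusted p 0.646) at 1 h and 1.37 (SE 0.59, limma adjusted p 0.551) at 4 h. Without replicate 1 of shade 1 h the 1 h difference was 0.75, and without replicate 2 it was 2.21. Without replicate 1 of shade 4 h the 4 h difference was 0.60, and without replicate 2 it was 2.14.

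Part of the *XTH15* gene (chromosome 4, 8137020 to 8138392, minus strand) overlaps AT4G14120 on the plus strand, and 29.4% of its exonic 40-base stretches were shared with that gene. The library kit does not mark strand, so reads in the overlap cannot be assigned to either gene. The CPM of AT4G14120 was 6.72 and 9.77 in sun and 4.76 and 6.61 in shade at 1 h, and 4.85 and 8.79 in sun and 3.43 and 5.81 in shade at 4 h. It held 22 and 23 reads in the shade 1 h libraries, where *XTH15* held 147 and 38.

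*XTH16*, whose coding sequence is 81.7% identical to that of *XTH15*, varied little. Its CPM was 59.8 and 50.5 in sun and 63.4 and 64.1 in shade at 1 h, and 57.8 and 57.2 in sun and 71.9 and 52.0 in shade at 4 h. The shade libraries were above sun at 1 h and overlapped it at 4 h. The log2 difference was 0.21 (SE 0.18, limma adjusted p 0.888) at 1 h and 0.09 (SE 0.18, limma adjusted p 0.924) at 4 h.

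*XTH9*, the most abundant member, which is known from shoot apices and young organs, was the only other gene besides *XTH24* with a lower mean in shade at 1 h. Its CPM was 440 and 343 in sun and 369 and 299 in shade at 1 h, and 287 and 330 in sun and 249 and 299 in shade at 4 h. Sun and shade overlapped at both times. The log2 difference was -0.23 (SE 0.17, limma adjusted p 0.866) at 1 h and -0.17 (SE 0.17, limma adjusted p 0.830) at 4 h.

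The 3 near-identical genes *XTH17*, *XTH18* and *XTH19*, which are best known from roots, were higher in both shade libraries than in both sun libraries at both times. For *XTH18* at 1 h this rested on 3 reads in replicate 1 of shade against 2 in each sun library. The CPM of *XTH17* was 3.49 and 5.30 in sun and 5.41 and 8.91 in shade at 1 h, and 3.09 and 3.80 in sun and 5.99 and 9.59 in shade at 4 h. The groups nearly touched at 1 h and stood further apart at 4 h. The log2 difference was 0.58 (SE 0.37, limma adjusted p 0.840) at 1 h and 0.96 (SE 0.37, limma adjusted p 0.493) at 4 h.

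The CPM of *XTH18* was 0.498 and 0.558 in sun and 0.649 and 5.17 in shade at 1 h, and 0.441 and 0.237 in sun and 7.71 and 1.45 in shade at 4 h. That of *XTH19* was 0.498 and 0.837 in sun and 2.38 and 1.72 in shade at 1 h, and 0.441 and 0.237 in sun and 5.14 and 2.03 in shade at 4 h. Every sun library held 1 to 3 reads of each gene, while the shade libraries held 3 to 18 reads of *XTH18* and 6 to 11 of *XTH19*. In each shade group 1 replicate of *XTH18* held most of the signal, replicate 2 at 1 h and replicate 1 at 4 h. The coefficient of variation between replicates of *XTH18* was 110% in shade at 1 h, where counting error gives 31.0%, and 96.6% at 4 h, where it gives 40.9%. For *XTH19* it was 22.6% at 1 h, below the counting error of 34.6%, and 61.2% at 4 h, against 44.1%.

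From the pooled reads, the ratio of shade to sun for *XTH18* was 4.92 at 1 h (exact 95% counting interval 1.66 to 19.7) and 8.86 at 4 h (2.47 to 48.1). For *XTH19* it was 3.19 at 1 h (1.13 to 11.1) and 8.22 at 4 h (2.26 to 45.0). These intervals leave out the spread between replicates. Both genes also passed the minimum through their shade libraries alone, which favoured a ratio of shade to sun above 1. The limma adjusted p was 0.830 and 0.461 for *XTH18* and 0.792 and 0.264 for *XTH19* at 1 h and 4 h.

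*XTH22* encodes the TCH4 enzyme, whose transcript rises after touch, wounding, auxin and brassinosteroid. Its CPM was 32.9 and 28.2 in sun and 51.0 and 38.8 in shade at 1 h, and 35.7 and 21.6 in sun and 45.4 and 14.2 in shade at 4 h. Shade was above sun at 1 h, and at 4 h the shade replicates were the highest and the lowest of their 4 libraries. The log2 difference was 0.53 (SE 0.39, limma adjusted p 0.866) at 1 h and -0.12 (SE 0.39, limma adjusted p 0.958) at 4 h. Without replicate 1 of shade 4 h the 4 h difference was -0.92 and without replicate 2 it was 0.69.

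Of 7 other touch-responsive genes, none was called with limma, edgeR or DESeq2 at 1 h or 4 h. At an unadjusted p under 0.05 the count was 0 with limma at both times, and 1 at 1 h and 0 at 4 h with edgeR and with DESeq2. Their summed level ranged from 56.7 to 158 CPM over the libraries, with the lowest and the highest sums in the shade 4 h replicates. In shade 4 h, replicate 1 was above replicate 2 for all 7, by 1.43 to 16.2 times for the 6 with reads in both. *XTH22* was 3.19 times higher in replicate 1 than in replicate 2 of that group. The 5 shade markers were also higher in replicate 1, by 1.56 to 10.8 times. The part of handling in the level of *XTH22* was not tested.

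*XTH33* encodes a member with a membrane-spanning segment. Its reads were few, and its CPM was 0.498 and 0 in sun and 1.30 and 1.15 in shade at 1 h, and 0.221 and 1.90 in sun and 1.71 and 1.16 in shade at 4 h. The ratio of pooled reads at 1 h was 4.69 (exact 95% counting interval 0.999 to 44.0), from 10 reads in shade and 2 in sun. At 4 h the groups overlapped. The limma adjusted p was 0.824 at 1 h and 0.893 at 4 h.

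**Figure D3:**
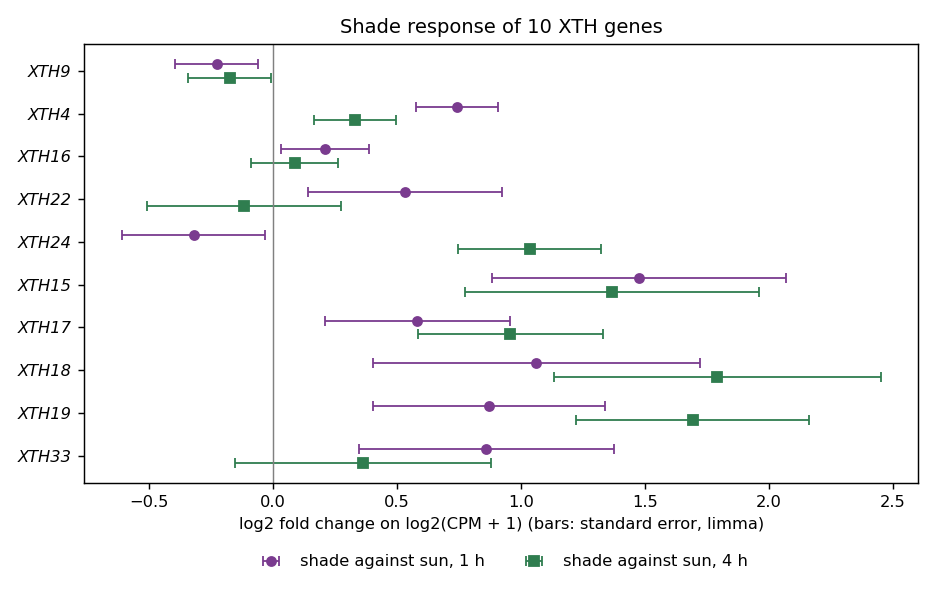
Log2 difference between shade and sun on log2(CPM + 1) for each of the 10 *XTH* genes, at 1 h (purple circles) and 4 h (green squares), with bars for the standard error from limma. No gene was called at either time, and the estimates lay between -0.32 and 1.79.

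After 4 hours of shade none of the 10 genes was called with limma, edgeR or DESeq2, beside 0.119% of the tested genes with limma (23 genes). An unadjusted limma p under 0.05 was found for 5 of them (*XTH15*, *XTH17*, *XTH18*, *XTH19* and *XTH24*), beside 8.62% of all tested genes. Of these, *XTH18* and *XTH19* were tested only because of their shade libraries, so that share is no fair background for them. The count at that unadjusted level was 4 with edgeR and 4 with DESeq2, beside 7.34% and 3.65%. The 2 shade libraries lay above the 2 sun libraries for 5 genes (*XTH4*, *XTH17*, *XTH18*, *XTH19* and *XTH24*), beside 16.9% of tested genes, and below them for 0 genes, beside 20.9%. The median log2 difference was 0.66 over the 10 genes and -0.03 over all tested genes. Over the 7 genes that reached the minimum with sun libraries alone it was 0.33, with 3 of 7 above without overlap, beside 16.4% of the genes selected in the same way.

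The shade replicates of 4 h differed from each other. Replicate 1, the library with the fewest reads, was above replicate 2 for 8 of the 10 genes and for 5 of 5 shade markers (by 1.56 to 10.8 times). The share of all tested genes with that order was not counted. Without replicate 2, the only shade library of 4 h is replicate 1, with 1154019 reads. The log2 difference at 4 h was then 2.705 for *XTH18* and 2.201 for *XTH19*, against 0.877 and 1.184 without replicate 1. These genes were tested only because of their shade libraries, and they held 9 and 6 reads in replicate 1. For *XTH24* the difference was 1.229 without replicate 2, and it lay between 0.691 and 1.38 with each library left out in turn. The part of depth in the difference between the shade replicates of 4 h was not tested.

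*XTH24*, first isolated as the meristem gene *MERI5*, was lower in shade at 1 h and higher in shade at 4 h. Its CPM was 16.2 and 17.6 in sun and 14.7 and 12.1 in shade at 1 h, and 5.95 and 10.2 in sun and 19.7 and 14.8 in shade at 4 h. The groups did not overlap at either time, and the 2 sun libraries of 4 h were the lowest of the 8. At 1 h the shade to sun ratio of pooled reads was 0.806, with an exact 95% counting interval of 0.619 to 1.05. The log2 difference was -0.32 (SE 0.29, limma adjusted p 0.897) at 1 h and 1.04 (SE 0.29, limma adjusted p 0.267) at 4 h.

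The change of the shade response with time, 4 h minus 1 h, was called for none of the 10 genes, beside 0.0104% of the tested genes (2 genes). An unadjusted p under 0.05 was found for 1 gene, *XTH24*, with limma, with edgeR and with DESeq2, beside 5.51%, 5.68% and 2.33% of all tested genes. For *XTH24* the change was 1.35 on the log2 scale (SE 0.41, limma adjusted p 0.771). For the other 9 genes it lay between -0.65 (*XTH22*) and 0.82 (*XTH19*) with limma. In edgeR on the recovered reads, the sparsely counted *XTH33* (-1.74) and *XTH19* (1.47) had larger estimates than *XTH24* (1.37). The 10 genes had a median change of -0.03, beside -0.04 over all tested genes.

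In sun, tissue taken at 4 h was compared with tissue taken at 1 h, which differ in time of day. None of the 10 genes was called with limma, beside 3.58% of the tested genes (691 genes). An unadjusted limma p under 0.05 was found for *XTH4* and *XTH24*, beside 17.6% of all tested genes. *XTH4* was higher at 4 h by 0.60 on the log2 scale (SE 0.17, limma adjusted p 0.0672) and *XTH24* was lower by 1.02 (SE 0.29, limma adjusted p 0.0718). The groups did not overlap for 1 gene with higher levels at 4 h (*XTH4*), beside 33% of tested genes, and for 4 with lower levels (*XTH9*, *XTH18*, *XTH19* and *XTH24*), beside 22.5%. Every sun library held only 1 to 3 reads of *XTH18* and of *XTH19*. Their pooled 4 h to 1 h ratios were 0.652 (exact 95% counting interval 0.0954 to 3.85) and 0.521 (0.0809 to 2.68). Both were tested only because of their shade libraries, so that share is no fair background for them.

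The sun comparison depended on which libraries entered the fit. Limma on the 4 sun libraries alone called *XTH4* (adjusted p 0.00721) and *XTH24* (0.0336), beside 11.3% of all tested genes. In the model of 4 groups limma called both without replicate 1 of shade 4 h (adjusted p 0.0178 and 0.0285) and without replicate 2 (0.0186 and 0.0277), beside 8.94% and 8.91% of all tested genes. EdgeR called *XTH24* (adjusted p 0.0295) and not *XTH4* (0.0982), beside 5.1% of all tested genes. DESeq2 called 0, beside 3.71%, and 3 had an unadjusted p under 0.05, beside 11.9%. The median of all tested genes in this comparison was 0.07.

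Averaged over both times, shade against sun called none of the 10 genes with limma or edgeR, beside 0.628% (121 genes) and 0.731% of the tested genes. DESeq2 called 1 (*XTH4*, adjusted p 0.00621), beside 0.799%. An unadjusted limma p under 0.05 was found for *XTH4*, *XTH15*, *XTH17*, *XTH18* and *XTH19*, beside 9.56% of all tested genes. That share is no fair background for *XTH18* and *XTH19*, which entered the test through their shade libraries alone. The mean log2 difference was 0.54 (SE 0.12, limma adjusted p 0.0638) for *XTH4* and 1.28 (SE 0.33, limma adjusted p 0.146) for *XTH19*. It was 1.42 (SE 0.42, limma adjusted p 0.225) for *XTH15*, 1.43 (SE 0.47) for *XTH18* and 0.77 (SE 0.26) for *XTH17*. Both shade libraries lay above both sun libraries at both times for *XTH4*, *XTH17*, *XTH18* and *XTH19*, beside 4.5% of tested genes, and of these *XTH18* and *XTH19* were tested only because of their shade libraries. Without replicate 2 of shade 4 h, limma called 4 genes, with adjusted p-values of 0.00895 for *XTH4*, 0.0190 for *XTH15*, 0.0224 for *XTH18* and 0.0159 for *XTH19*, and it then called 4.17% of all tested genes.

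The other 23 genes of the family are described beside these values. Of them 11 were tested, and 9 of the 33 family genes held no more than 3 reads in any library. Averaged over both times 1 of the 11 rose in shade with limma, edgeR and DESeq2, *XTH8*, and 0 fell with any of them. The CPM of *XTH8* was 24.9 and 22.6 in sun and 38.5 and 47.1 in shade at 1 h, and 32.9 and 32.5 in sun and 72.8 and 51.2 in shade at 4 h. Shade was above sun at both times, with a mean log2 difference of 0.85 (SE 0.14, limma adjusted p 0.00987). That call was lost with 5 of the 8 libraries left out in turn (limma adjusted p up to 0.0986). The median mean difference was 0.05 over the 11 genes.

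**Figure D4:**
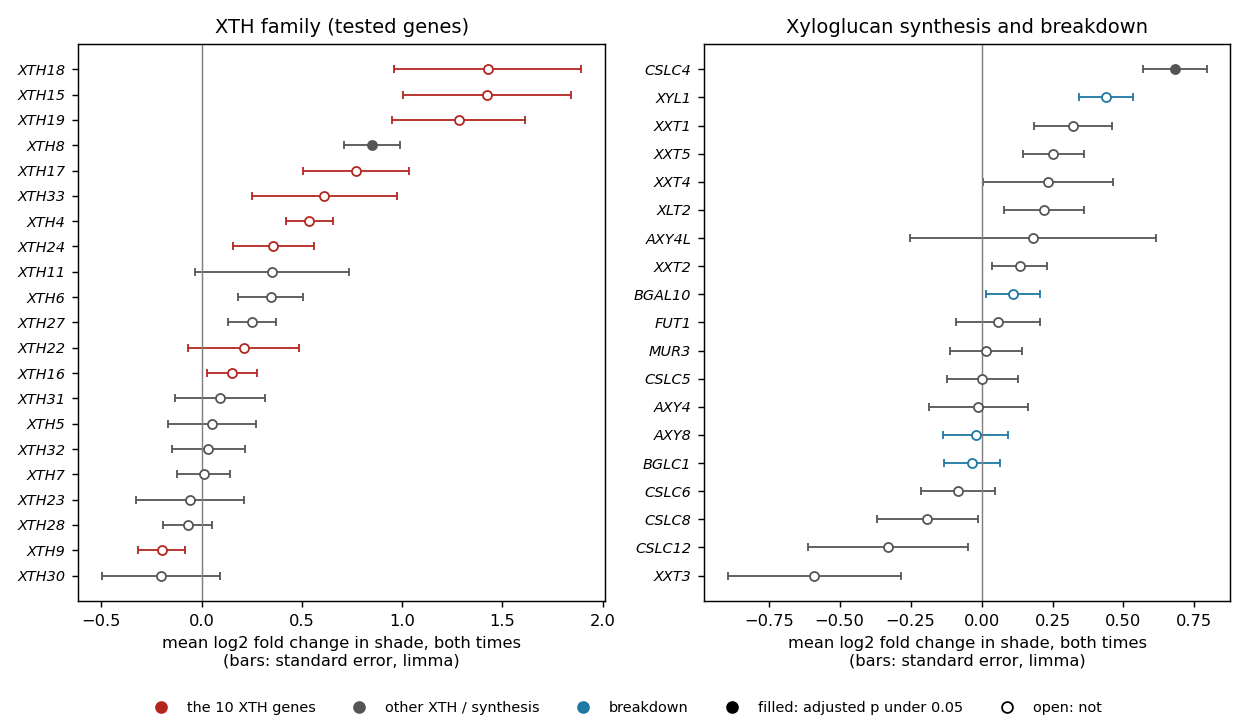
Mean log2 difference between shade and sun over both times for the 21 tested *XTH* genes (left, the 10 genes in red) and for 19 genes of xyloglucan synthesis (grey) and breakdown (blue) (right), with bars for the standard error from limma. Filled points were called, which were *XTH8* (0.85) and *CSLC4* (0.68).

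The genes that make and trim xyloglucan were counted beside the *XTH* genes. Of 15 genes for the glucan backbone and its side chains, 1 rose in shade at 1 h and averaged over both times, *CSLC4*, which encodes the main synthase of the glucan backbone. Its CPM was 46.8 and 49.4 in sun and 84.4 and 88.8 in shade at 1 h, and 67.0 and 55.8 in sun and 95.9 and 82.0 in shade at 4 h. Shade was above sun at both times, by 0.83 at 1 h (SE 0.16, limma adjusted p 0.0358) and by 0.68 on average (SE 0.11, limma adjusted p 0.00940). The 1 h call was lost with 6 of the 8 libraries left out in turn (limma adjusted p up to 0.376) and without a filter (0.0806), and the average with 4 of 8 left out (up to 0.119). At 4 h none of the 15 was called with limma, edgeR or DESeq2, and 1 had an unadjusted p under 0.05 with each.

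Of 4 genes for enzymes that trim xyloglucan, 0 were called for shade at 4 h with limma, edgeR or DESeq2, and at an unadjusted p under 0.05 the count was 0, 0 and 1. At 1 h the count of calls was 0 with limma, 0 with edgeR and 1 (*XYL1*) with DESeq2, and the same gene had an unadjusted p under 0.05 with limma. *XYL1*, an alpha-xylosidase gene named here after its values were seen, was at 433 and 427 CPM in sun at 1 h and at 667 and 647 CPM in shade. Its log2 difference at 1 h was 0.61 (SE 0.14, limma adjusted p 0.0829). *BGAL10*, a beta-galactosidase gene, rose in sun from 1 h to 4 h by 0.55 (SE 0.14, limma adjusted p 0.0404), a call lost with 6 of the 8 libraries left out (up to 0.391), without a filter (0.0620), with quantile normalization (0.0690), with median ratio rescaling (0.0775), with edgeR (0.0667) and with DESeq2 (0.0838).

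*XTH4* had the smallest p of the 10 genes, and the genes whose levels followed it most closely over the 8 libraries were sought among 12598 genes with a mean of at least 10 CPM. The highest Pearson correlations of log2(CPM + 1) were 0.989 for AT2G47440, 0.985 for *XXT5* and 0.981 for AT5G25280. *XXT5*, a xylosyltransferase gene of xyloglucan synthesis, had a CPM of 53.8 and 59.7 in sun and 64.5 and 75.3 in shade at 1 h, and of 66.2 and 68.4 in sun and 81.4 and 75.0 in shade at 4 h. Its mean log2 difference in shade was 0.25 (SE 0.11, limma adjusted p 0.466). These points share their libraries and the scaling of each library, and the 3 genes were picked as the closest of many.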

How the data were processed

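Libraries of mRNA were made from total RNA of leaves and apical tissue, and 8 were sequenced. Per the labels, cotyledons, hypocotyls and roots had been removed. According to the methods of the study, adaptors were removed from 40 bp single-end reads with custom Perl scripts and the reads were mapped with TopHat to TAIR10. The authors deposited a single table of CPM for 33602 genes, from edgeR, scaled to an effective library size. The program that counted reads, the versions and the scaling method are not given in the sources used here, and the library kit did not mark strand. All 8 columns of values were used, and 0 were left out. Each value was a whole multiple of 1 read within 0.01 reads (100.0% of values), so reads were recovered, between 1154019 and 4680620 per library. Groups and replicate numbers came from the sample titles.

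The 19280 genes that reached 1 CPM in 2 libraries were analysed as log2(CPM + 1) in limma 3.58.1 (R 4.3.3), with the 4 groups in one model, 4 residual degrees of freedom, moderated variances (eBayes, trend on) and Benjamini-Hochberg adjustment over all tested genes within each contrast. A gene was called at an adjusted p under 0.05, and 0.001, the threshold in the study's methods, was an alternative. Only the limma fit of shade against sun at 1 h was tried on simulated data. Changes were set in more abundant genes alone, so detection at the levels of *XTH15*, *XTH17*, *XTH18*, *XTH19*, *XTH24* and *XTH33* was not covered. Other alternatives were pseudocounts of 0.25 and 5, quantile normalization, rescaling by median ratios, no filter, a minimum of 5 CPM, the 4 libraries of a comparison alone, a replicate block, each library left out in turn, and edgeR 4.0.16 (quasi-likelihood) and DESeq2 1.42.0 on the recovered reads. Counting intervals are exact (Clopper-Pearson, 95%) and cover counting error only, because reads without molecular identifiers are not independent molecules.

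Gene models, promoters and coding sequence came from RefSeq's TAIR10.1 annotation, which may differ from the authors' TAIR10 models. Lengths are those of the merged exons. Python 3.11.15 with numpy 2.4.6, scipy 1.17.1, pandas 2.3.3 and matplotlib 3.10.9 served for the tables, sequences and plots. The members, the gene lists and the tests were chosen with earlier results of these data known. All 10 members were named. Among the other *XTH* genes and the xyloglucan lists, genes past the threshold were named, or the gene with the smallest p in each direction where none passed. *XYL1* was named after its values were seen. The 3 genes most like the member with the smallest p were named as well.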

Additional observations from a re-analysis of the deposited data

Results flagged for a closer look

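*XTH24* was singled out because its libraries moved in opposite directions at the different times: both shade libraries were below both sun libraries at 1 h and above them at 4 h. Of all tested genes, 18.5% were lower without overlap at 1 h and 16.9% higher at 4 h. The share with both was not counted. The shade to sun ratio of pooled reads was 0.806 at 1 h (exact 95% counting interval 0.619 to 1.05) and 2.01 at 4 h (1.43 to 2.82). Mean CPM was 16.9 in sun and 13.4 in shade at 1 h, and 8.08 in sun and 17.3 in shade at 4 h. The ratios and the test of the difference use the same values that singled out *XTH24*, so they are no separate support for it. The difference itself, 4 h minus 1 h, was 1.354 on the log2 scale (SE 0.41). Its unadjusted limma p was 0.00525 and its limma adjusted p was 0.771 over 19280 genes. It lay between 1.01 and 1.70 with each library left out in turn.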

How the results depend on the processing

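The counts of called genes among the 10 were 0 in each of the 5 comparisons, and they stayed at 0 at an adjusted p of 0.001, with pseudocounts of 0.25 and 5, without a filter, with a minimum of 5 CPM, with quantile normalization and with median ratio rescaling. Residuals of same-numbered libraries correlated between -0.0632 and 0.103, so the replicate numbers were not taken as pairs. A replicate block gave 0 called in each comparison and changed no call of the 10 genes, *XTH8*, *CSLC4* or *BGAL10*; among the 5 shade markers it called 2 at 4 h in place of 1. With each library left out, the count ranged from 0 to 1 for shade at 1 h, 0 to 3 at 4 h, 0 to 2 for sun at 4 h against 1 h, 0 to 4 for the average over both times and stayed at 0 for the change with time. With DESeq2 it was 1 for 1 h, beside 0.612% of all tested genes, and 1 for the average, beside 0.799%. For sun at 4 h against 1 h it was 2 with the sun libraries alone, beside 11.3%, and 1 with edgeR, beside 5.1%. DESeq2 gave an adjusted p to 9 of the 10 genes at 1 h, at 4 h and for the average, and to 6 for sun at 4 h against 1 h. Of single values of the 10 genes, 818 kept their direction and side of the threshold, 18 passed it and 27 changed direction, none of them a called value.

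Several values changed direction. The change with time of *XTH15* was 0.028 with a pseudocount of 0.25, and the sun change of *XTH16* was -0.015 with quantile normalization, -0.0072 with median ratio rescaling, -0.018 with edgeR and -0.014 with DESeq2. At 4 h *XTH22* was 0.040 with DESeq2, and *BGAL10* was 0.0082 with median ratio rescaling and 0.00055 with DESeq2. With each library left out, the change with time ranged from -0.13 to 0.23 for *XTH9*, -0.88 to 0.66 for *XTH15*, -0.35 to 0.11 for *XTH16*, -0.22 to 1.68 for *XTH18*, -1.45 to 0.15 for *XTH22*, -1.12 to 0.13 for *XTH33* and -0.19 to 0.31 for *XTH8*. The 4 h difference ranged from -0.14 to 0.32 for *XTH16*, -0.92 to 0.69 for *XTH22*, -0.26 to 0.99 for *XTH33* and -0.085 to 0.064 for *BGAL10*. The sun change ranged from -0.055 to 0.18 for *XTH16*, -0.48 to 0.22 for *XTH22* and -0.0041 to 1.24 for *XTH33*, and the average over both times from -0.19 to 0.61 for *XTH22*. The causes were not tested. Depth limits *XTH18*, *XTH19* and *XTH33*, which held 42, 38 and 27 reads in all 8 libraries.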
